A study of Mus musculus with 13 samples.

Results

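Untreated wild-type (WT) mouse embryonic stem (ES) cells were sequenced as a single library and as a set of 3 replicates, and the gene levels of the single library were set beside those of the replicates. The members were chosen by their labels alone: the single library is the WT column of a joint count table, and the replicates are the WT samples that have a file of their own, which gives 4 of 10 RNA sequencing libraries. Of the 13 labelled samples of the series, 8 are RNA sequencing libraries, and the WT and Dnmt1 columns of the joint table are 2 further libraries with no labelled sample. The series asks how removal of the sugar O-GlcNAc from proteins at intracisternal A-particle (IAP) retrotransposons compares with loss of DNA methylation. The 3 WT replicates were AinV15 ES cells, an established mouse line, grown without treatment on gelatin-coated plates in serum with the cytokine LIF. The labels did not give the cell line or the culture of the single WT library. The other libraries of the joint table were 1 from Dnmt1-/- ES cells, which lack the maintenance DNA methyltransferase, 1 from AinV15 cells with dCas9 fused to the O-GlcNAc-removing enzyme OGA, and 1 with the inactive D242A form of OGA. The last pair carried 4 guide RNAs against IAP elements and doxycycline-induced fusion proteins. Dnmt1-/- cells, with the C null allele per the labels, were also sequenced as 3 replicates, so that a single library and 3 replicates can be compared in them with no library shared with the WT comparison. The WT replicates rest on 1 line, whether the single WT library is of that line is not given, and nothing in the labels says that replicates came from separate cultures.

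ES cells are derived from the inner cell mass of the blastocyst and keep self-renewal under LIF, which activates STAT3. Such cultures are mixtures: a small fraction of cells passes through a state that resembles the 2-cell embryo and transcribes the Zscan4 cluster and the MERVL retrotransposon. Other cells start toward primitive endoderm or the formative state of the epiblast. ES cells respond weakly to interferon, whereas fibroblasts, which are often used as feeder cells, respond strongly and secrete collagen I. Male ES cell lines carry a Y chromosome, which can be lost on passage.

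The single WT library held 25097983 reads on genes, and the 3 WT replicates held 26846275 to 37112247. The Dnmt1-/- libraries held 18693531 reads in the single library and 27934568 to 30950554 in the replicates. All 26797 genes of the replicate files were also in the joint table, and levels are given as counts per 1000000 reads of the library's own total (cpm). Differences are log2(cpm + 0.5) of the single library minus the mean of the same value in the replicates, so that low genes change less on this scale than in cpm. A gene was called higher or lower at 2-fold on this scale. The joint table and the replicate files were made separately, the submitters' notes list another read mapper for the replicates than for the labelled libraries of the joint table, and the single library has no replicate. Table, mapper, culture and time of sequencing therefore cannot be told apart from the state of the cells, and no p-value was computed.

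Among 14798 genes that averaged at least 1 cpm over both sets, 2099 (14.2%) were higher and 4443 (30.0%) were lower in the single WT library. The median gene lay at −0.21, and with that median moved to 0 the counts were 2803 higher and 3887 lower. The single library fell outside the range of the 3 replicates for 14005 genes (94.6%). By contrast, no more than 2 genes in any WT replicate lay 2-fold away from the mean of the other replicates. The correlation of log2 levels across these genes, which are not independent, was 0.72 to 0.73 between the single WT library and the WT replicates, 0.94 to 0.95 between the single WT library and the other single libraries, and 0.95 between the WT and the Dnmt1-/- replicates. Libraries thus resembled the other libraries of their own table more than those of their own genotype.

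The Dnmt1-/- pair was read in the same way over 13836 genes that averaged at least 1 cpm in both comparisons. In it, 1569 genes (11.3%) were higher and 2751 (19.9%) were lower in the single library. The WT and Dnmt1-/- differences had a Pearson correlation of 0.86 and a Spearman correlation of 0.74 across genes, where each pair spans the same 2 tables. Of the genes that were higher in the single WT library, 1032 were also higher in the single Dnmt1-/- library, which is 51.0% of the WT set and 65.8% of the Dnmt1-/- set. Of those that were lower, 2202 were lower in both, which is 57.7% and 80.0% of the sets. Just 21 genes were higher in the WT pair and lower in the Dnmt1-/- pair, and 65 went the other way. When the Dnmt1-/- difference was subtracted, 1000 genes (7.23%) had a difference of 1 or more and 2118 (15.3%) of −1 or less on the log2 scale. Within the joint table, the single WT library was 2-fold above the mean of the other 3 libraries for 900 genes (6.08%) and below it for 1363 (9.21%).

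**Figure D1:**
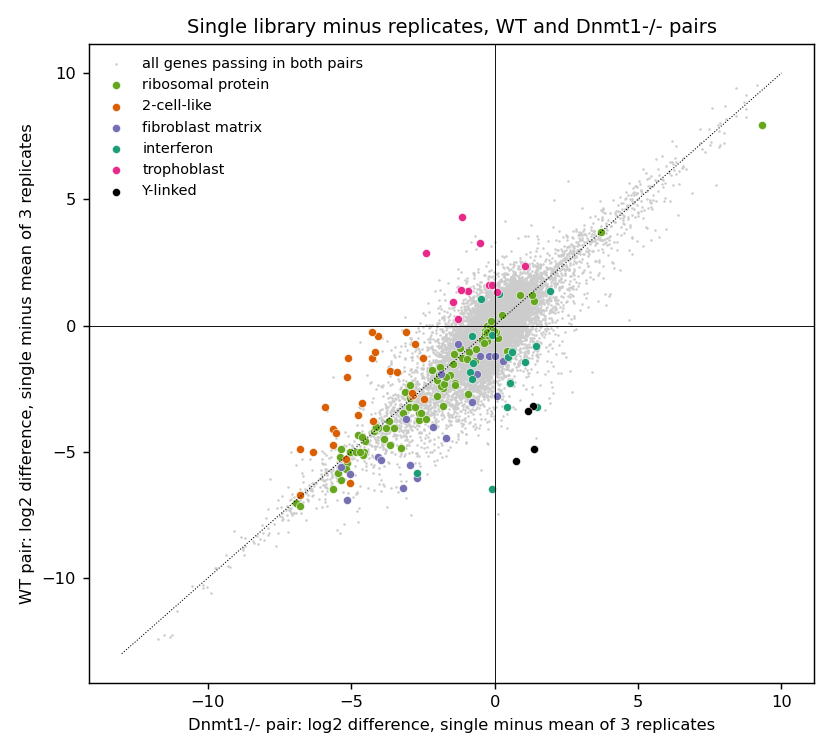
Each point is a gene that averaged at least 1 cpm in both comparisons, with the log2 difference of the single library from the replicates in Dnmt1-/- cells on the x axis and in WT cells on the y axis. Members of the named lists are coloured, and the dotted line marks equal differences. Most genes lie along that line (Pearson r of 0.86), fibroblast matrix and interferon genes lie below it, and trophoblast genes above it.

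Some genes were near 0 in one set and abundant in the other, and most of them kept this pattern in the other single libraries. In all, 34 genes were under 1 cpm in every WT replicate and at 50 cpm or more in the single WT library, of which 19 were protein-coding and 15 pseudogenes. All 34 followed the same pattern in the other libraries of the 2 tables. Usp10, a ubiquitin protease that acts on p53, was at 0.0341, 0.0269 and 0 cpm in WT replicates 1 to 3 and at 382 cpm in the single WT library. It was at 0 in all 3 Dnmt1-/- replicates and at 282 cpm in the single Dnmt1-/- library. Rbm14, an RNA-binding coactivator, was at 0 cpm in all 3 WT replicates and at 338 cpm in the single library, at least 10499-fold higher against a floor of 3 counts over the 3 replicates. The corepressor Ctbp2 was at 0.580, 0.539 and 0.484 cpm against 571 cpm, a 1068-fold difference. These levels near 0 stood in every replicate of both genotypes. What sets these levels was not tested.

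In the reverse class, 125 genes were at 50 cpm or more in every WT replicate and under 1 cpm in the single WT library, and 77 of them were pseudogenes. For scale in both classes, the 14798 genes compared held 897 processed and 84 unprocessed pseudogenes besides transcribed ones. Of the 125, 113 were under 1 cpm in the other single libraries too, a check that left out the Dnmt1-/- replicates. The unprocessed pseudogene Gm21857 was at 115, 121 and 121 cpm in the WT replicates but at 0.269 to 0.465 cpm in the Dnmt1-/- replicates. At least 50% of 50-base sequences (50-mers) were shared with another gene for 85 of the 125, beside 1077 of the 14798 genes compared. The largest falls were in unprocessed pseudogenes on chromosome 1 that copy the mitochondrial genome. Gm28661 was at 3369, 2879 and 3352 cpm in the WT replicates and at 0.0797 cpm in the single library. Gm28437 was at 3559, 3118 and 3615 cpm against 0.159 cpm, and Gm29216 at 2637, 2195 and 2479 cpm against 0, at least 20387-fold lower against a floor of 3 counts. The 7 unprocessed pseudogenes that hold at least 50% of their 50-mers in transcripts of the mitochondrial genome summed to 14057, 11878 and 13977 cpm in the WT replicates and to 1.63 cpm in the single library, with 8039 to 9432 cpm and 2.57 cpm in the Dnmt1-/- pair. The joint table lists 37 genes of the mitochondrial genome itself, all with 0 reads, and genes of the mitochondrial genome in the replicate files were not analysed here. The ribosomal RNA copy Rn18s-rs5 was at 1347, 1015 and 1504 cpm against 0 cpm, and the protein-coding gene Sspn, a component of the dystrophin complex, at 553, 400 and 646 cpm against 0.199 cpm.

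Gene classes moved in step with these patterns. Of 13212 protein-coding genes, 12.8% were higher and 27.7% lower, with a median of −0.17 in WT and −0.10 in Dnmt1-/- cells. Of 250 long intergenic noncoding RNAs, 74.8% were lower, with medians of −2.25 and −1.61. Unprocessed pseudogenes were lower in 82.1% of 84 genes, with a median of −2.83. These medians hold for genes that passed the level filter. Without it they were −0.18 over 2133 long intergenic noncoding RNAs and −0.16 over 568 unprocessed pseudogenes. Processed pseudogenes, which are reverse-transcribed copies of messenger RNAs, moved both ways, with 42.0% of 897 higher and 35.3% lower. Among protein-coding genes, the 120 that shared over 90% of their 50-mers with another gene were lower in 85.0% of cases with a median of −3.50, and those sharing at most 1% had a median of −0.10. The median also rose with the GC content of the longest transcript, from −1.46 for 780 genes under 40% GC to 0.42 for 618 genes over 60% GC, against −0.51 and 0.28 in the Dnmt1-/- pair. The correlation between GC content and the difference was 0.38 across 13212 genes in WT and 0.20 in Dnmt1-/- cells. Genes with transcripts over 8 kb had a median of −0.72 in WT and −0.12 in Dnmt1-/- cells. Centring within bins of GC content, which also moves the median to 0, gave 2567 genes higher and 3412 lower, beside 2803 and 3887 when the median gene alone was moved to 0.

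**Figure D2:**
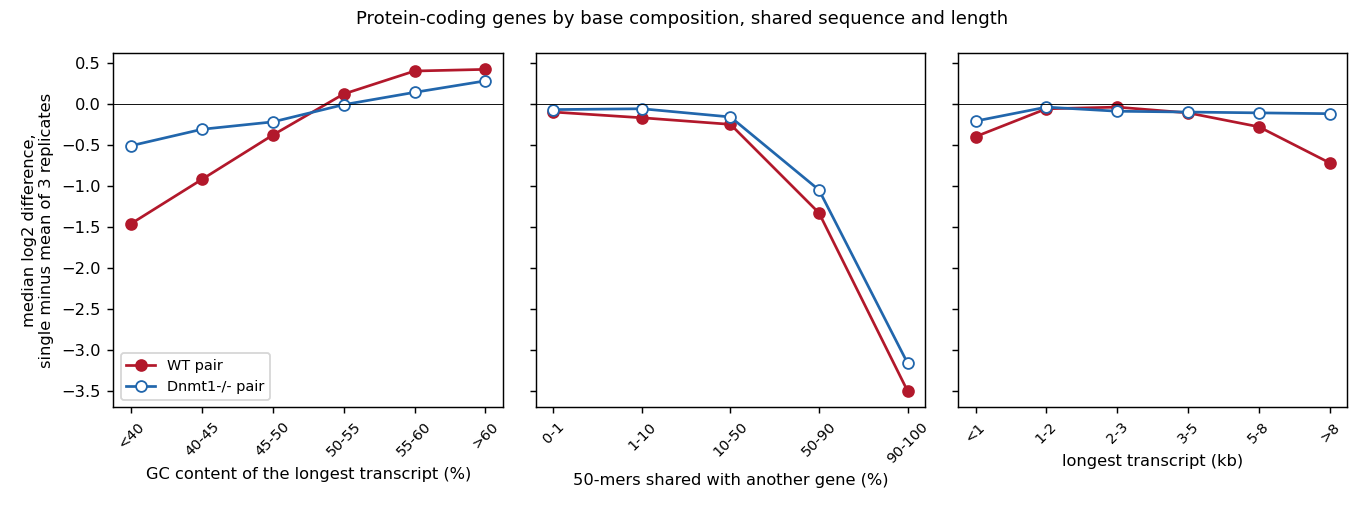
Median log2 difference (single library minus replicates, y axis) of protein-coding genes binned on the x axes by GC content, by the share of 50-mers found in another gene and by transcript length, in the WT and the Dnmt1-/- pairs. The WT median ran from −1.46 under 40% GC to 0.42 over 60% GC, and fell to −3.50 where over 90% of 50-mers were shared.

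The most abundant genes differed in the same manner. Ribosomal protein genes were lower as a group, with 58 of 79 lower and 4 higher (30.0% and 14.2% of all genes) and a median of −2.49, against −2.01 in the Dnmt1-/- pair and 0.03 within the joint table. Their summed level was 57819, 56664 and 55090 cpm in the WT replicates and 25526 cpm in the single library. Rpl5 was at 1073, 989 and 999 cpm against 6.73 cpm, and Rps16 at 803, 836 and 764 cpm against 5.70 cpm. The fall was larger where more sequence was shared with other genes of any kind. The 14 ribosomal protein genes that share under 10% of their 50-mers had a median of −1.02, the 43 that share 10% to 50% a median of −3.20, and the 22 that share 50% or more a median of −3.46. Rpl8, which encodes a large-subunit protein, moved the other way, from 1817, 1852 and 1805 cpm to 4172 cpm. Annotated pseudogenes of ribosomal proteins were lower in 52 of 76 cases and higher in 12, beside 30.0% and 14.2% of all genes. Their median was −4.16, and it was −0.40 over 143 of them without the level filter and −1.84 with a pseudocount of 5. Among other highly expressed genes, the elongation factor Eef1a1 was at 10368, 10727 and 10510 cpm against 2144 cpm, and the elongation factor Eef2 at 3792, 4180 and 3889 cpm against 7021 cpm. Hsp90aa1, the inducible cytosolic HSP90 chaperone, was at 3555, 3078 and 3326 cpm against 96.7 cpm, and at 528 cpm in the single Dnmt1-/- library. Its constitutive paralog Hsp90ab1 was at 5277, 5623 and 5588 cpm against 6733 cpm.

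Zinc-finger genes formed the largest list that fell. Of 334 measured members, 194 were lower and 25 higher, beside 30.0% and 14.2% of all genes, with a median of −1.81 in WT and −0.86 in Dnmt1-/- cells. The WT median was −0.96 after centring by GC content and −0.77 with a pseudocount of 5. Zfp951, a member of this family, was at 90.2, 84.6 and 98.3 cpm in the WT replicates and at 0.398 cpm in the single library. Zfp809, which directs silencing of retroviruses through TRIM28, was at 101, 101 and 107 cpm against 5.94 cpm. The single Dnmt1-/- library was also low, with Zfp809 at 12.0 cpm against 107 to 111 cpm in its replicates. Nuclear long noncoding RNAs were lower in 8 of 11 cases (median −1.28 in WT and −0.93 in Dnmt1-/- cells), and after centring by GC content in 3 of 11 (median −0.61). Malat1, a nuclear speckle RNA, was at 290, 295 and 292 cpm against 76.6 cpm, and Gas5, a host of small nucleolar RNAs, at 152, 148 and 147 cpm against 24.2 cpm. Clustered histone genes, whose transcripts usually lack a poly(A) tail, were lower in 20 of 39 cases (30.0% of all genes), with a median of −1.33. That median was −0.43 with a pseudocount of 5 and 0.28 over the 5 with little shared sequence, and 18 of the 39 shared at least 50% of their 50-mers. Hox genes, which pattern the body axis, were lower in 10 of 16 cases (30.0% of all genes), with a median of −1.51 in WT and −1.02 in Dnmt1-/- cells. The WT median was −0.46 with a pseudocount of 5, and 0.01 relative to the Dnmt1-/- pair over the 7 that passed in both. Genes of the mitochondrial respiratory chain encoded in the nucleus had a median of −0.02, with 8 of 82 higher and 19 lower, below the 14.2% and 30.0% of all genes.

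Genes of the 2-cell-like state were high in the WT replicates, and the single WT library held less of them than the replicates but more than any other library of its table. Of 30 measured members of this list, 25 were lower and 0 higher than in the replicates, with a median of −2.81, against 4443 of 14798 genes lower in all. The list summed to 1361, 1302 and 1303 cpm in the WT replicates and to 142.5 cpm in the single WT library. The other single libraries held 1.483 to 5.276 cpm, and the Dnmt1-/- replicates 525.7 to 597.3 cpm, so that in both genotypes the replicates were above the single library (median −4.26 in the Dnmt1-/- pair). Within the joint table, 27 of the 30 genes were at least 2-fold higher in the single WT library than in the mean of the other 3, beside 6.08% of all genes. Tdpoz1, Tdpoz5, Gm4340 and BB287469 were at 0 in the single WT library, where BB287469 was at 39.2, 37.7 and 35.2 cpm in the replicates, at least 312-fold higher against the floor.

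Zscan4c (chr7:11005745-11010547, GRCm38), which encodes a telomere-associated protein of 2-cell embryos, was at 151, 140 and 142 cpm in the WT replicates and at 4.02 cpm in the single library, 35.9-fold lower. It was at 0.160, 0.200 and 0.443 cpm in the Dnmt1-/-, dCas9-OGA and dCas9-OGA-D242A single libraries. Zscan4c shares 85.5% of its 50-mers with other genes, its neighbour Zscan4f 95.3%. Zscan4f was at 155, 151 and 146 cpm against 0.956 cpm, while Zscan4d was at 107, 101 and 98.6 cpm against 5.50 cpm. Tmem92, a membrane protein gene that shares 2.01% of its 50-mers, gave another order of sizes. It was at 21.4, 24.4 and 22.6 cpm in the replicates and 19.2 cpm in the single WT library, within 2-fold, and at 0.481, 0.0801 and 0.967 cpm in the other single libraries. Zfp352, a retrotransposed zinc-finger gene of the early embryo, was at 6.25, 5.42 and 5.44 cpm against 3.19 cpm. The 3 genes under 10% shared had a median of −0.75 in WT, the 12 genes at 10% to 50% a median of −1.92 and the 14 genes at 50% or more a median of −4.03. In the Dnmt1-/- pair these medians were −3.39, −4.11 and −4.67, closer to each other. The joint table also counts repeats, and there MERVL-int reached 31657 reads (1261 cpm relative to gene reads) in the single WT library against 112 to 153 cpm in the other 3. MT2_Mm, the long terminal repeat that drives MERVL and fused genes, was at 210 cpm against 31.5 to 37.5 cpm. Repeat counts of the replicates were not analysed here.

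Genes of fibroblasts and their matrix were far lower in the single WT library, and the WT replicates stood above every other library. Of 22 measured members of the list, 21 were lower and 0 higher, where 30.0% and 14.2% of all genes were, with a median of −3.60 in WT and −1.78 in Dnmt1-/- cells. After centring by GC content the median was −3.56. All 23 listed genes summed to 3178, 3532 and 2561 cpm in the WT replicates, to 237.4 cpm in the single WT library, to 147.6 to 311.4 cpm in the other single libraries and to 576.3 to 622.4 cpm in the Dnmt1-/- replicates, and none of the 23 was at 0 in the single WT library. Col1a1 (chr11:94936224-94953042), which encodes the alpha 1 chain of collagen I, was at 546, 678 and 456 cpm against 14.5 cpm, 38.6-fold lower. In the Dnmt1-/- pair it was at 117, 131 and 116 cpm against 6.69 cpm. Lox, the collagen-crosslinking lysyl oxidase, was at 433, 440 and 336 cpm against 2.83 cpm, a 142-fold difference. Bgn, the proteoglycan biglycan, was at 324, 374 and 271 cpm against 6.10 cpm, and Col5a2 at 327, 316 and 240 cpm against 2.87 cpm. The surface antigen Thy1 fell less, from 57.3, 62.1 and 45.6 cpm to 20.5 cpm, and the PDGF receptor Pdgfrb was within 2-fold at 20.5, 22.7 and 18.2 cpm against 12.1 cpm. WT replicate 3 was the lowest replicate for each of these 6 genes. Whether other cells were present in the replicate cultures was not tested, and in bulk RNA fewer cells of a type and less RNA per cell cannot be told apart.

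Among genes that rise with actin tension or serum, targets of SRF and YAP were lower in 12 of 20 cases and higher in 0, beside 30.0% and 14.2% of all genes (median −1.11 in WT and −0.40 in Dnmt1-/- cells). Within the joint table they stood higher in the single WT library, with 11 of 20 at least 2-fold above the mean of the other 3 libraries (6.08% of all genes) and a median of 1.02, where the matrix list had a median of 0.28. Their sum was 6836, 7387 and 5771 cpm in the WT replicates, 3052 cpm in the single WT library and 1560 to 1795 cpm in the other single libraries. Acta2, smooth muscle actin, was at 512, 581 and 407 cpm against 14.2 cpm, and Ankrd1, a YAP target, at 62.3, 60.6 and 47.9 cpm against 0.319 cpm. Thbs1, the matrix protein thrombospondin, was at 900, 1042 and 754 cpm against 54.1 cpm. Immediate early genes were lower in 12 of 17 cases (30.0% of all genes), with a median of −1.67, and they were lower in the Dnmt1-/- pair too (median −1.37). Fos was at 112, 126 and 108 cpm against 5.74 cpm, Atf3 at 44.4, 44.6 and 43.2 cpm against 4.94 cpm and Egr1 at 192, 212 and 194 cpm against 27.1 cpm. Myc, which sustains proliferation of ES cells, was the member that rose, from 32.6, 33.7 and 34.4 cpm to 132 cpm. The largest falls of protein-coding genes included Vcam1, an adhesion molecule of activated endothelium and stroma, at 209, 200 and 168 cpm against 0.199 cpm, and Tm4sf1 at 160, 147 and 125 cpm against 0.159 cpm. The chemokine gene Ccl7 was at 98.2, 86.9 and 87.4 cpm against 0, at least 760-fold lower.

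**Figure D3:**
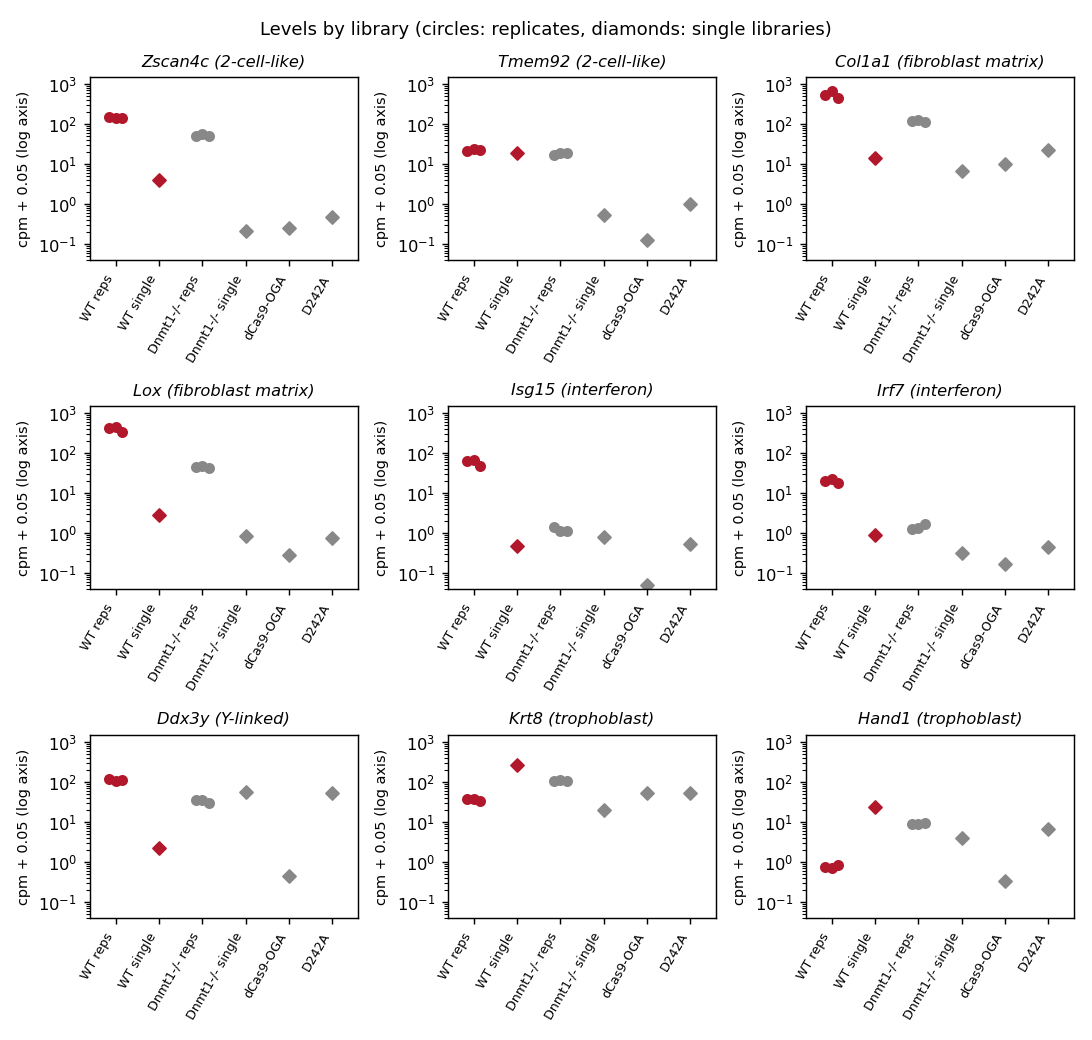
Levels of 9 genes in every library (y axis, cpm + 0.05 on a log scale, with 0 drawn at 0.05), with circles for replicates and diamonds for single libraries, WT in red and others in grey. Col1a1 and Isg15 stand highest in the WT replicates (456 to 678 and 46.7 to 66.1 cpm), Tmem92 stands higher in the single WT library (19.2 cpm) than in the other single libraries, and Krt8 and Hand1 stand highest in the single WT library (269 and 23.5 cpm).

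Interferon-stimulated genes were lower in the single WT library, and the median difference was smaller in the Dnmt1-/- pair. Of 26 measured members, 20 were lower and 3 higher, beside 30.0% and 14.2% of all genes. The median was −1.96 in WT (−1.04 with a pseudocount of 5) against −0.09 in Dnmt1-/- cells, both over members that passed the level filter in WT. Some of these, such as Isg15 and Ifit1, were near 1 cpm in Dnmt1-/- cells and could not show a fall of like size there. The difference between the pairs had a median of −2.38 over these members and −1.64 over those that passed in both pairs, and was not tested. The list summed to 993.0, 1018 and 879.6 cpm in the WT replicates and to 639.5 cpm in the single library, with 583.9 to 733.3 cpm in the other single libraries and 671.5 to 681.7 cpm in the Dnmt1-/- replicates. Within the joint table the median of the WT library against the other 3 was −0.27. The WT replicates therefore stood above all other libraries. B2m, a listed gene, was not analysed here.

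Many of these genes are switched on by the factors ISGF3 and IRF through the interferon-stimulated response element, which was searched as GAAANNGAAA on both strands of RefSeq promoters (250 bases before to 50 after the start, GRCm38.p6). The element occurred in 9 of 22 interferon genes with a promoter window (40.9%), in 3.66% of the 10430 genes that passed the level filter and had a window, and in 3.44% of all 32851 windows. A match is a description of letters and not of binding. The 30-base windows of 5 genes are shown because 4 of these genes fell far past 2-fold while Stat2 did not pass it. They are written 5′ to 3′ on the strand of the gene with the match in capitals, where a match on the opposite strand reads TTTCNNTTTC. Isg15 held 3 overlapping matches, of which 1 is in capitals and another stands partly in lower case in the printed window.
Isg15 (chr4:156200865-156200894, minus strand): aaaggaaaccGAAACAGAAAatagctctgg
Ifit1 (chr19:34640794-34640823, plus strand): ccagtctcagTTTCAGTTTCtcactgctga
Ifit3 (chr19:34583397-34583426, plus strand): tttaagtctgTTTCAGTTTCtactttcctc
Rsad2 (chr12:26456553-26456582, minus strand): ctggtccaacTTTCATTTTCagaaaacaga
Stat2 (chr10:128270266-128270295, plus strand): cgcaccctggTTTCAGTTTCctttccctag
Of the 9 genes with the element, 7 were lower and 0 higher, beside 30.0% and 14.2% of all genes (median −3.97 in WT, −0.32 in Dnmt1-/- cells). Of the 13 without it in the window, 9 were lower and 3 higher (median −1.59 in WT, 0.21 in Dnmt1-/- cells).

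Among the effectors, Isg15, a ubiquitin-like modifier, was at 62.5, 66.1 and 46.7 cpm in the WT replicates and at 0.438 cpm in the single library, 133-fold lower. In Dnmt1-/- cells it was at 1.41, 1.10 and 1.11 cpm in the replicates and at 0.749 cpm in the single library. Ifit1, which binds RNA that lacks a methylated cap, was at 56.0, 52.4 and 46.8 cpm and had 2 reads in the single library, for a ratio of 651 with a 95% counting interval of 180 to 5380. Ifit3 was at 56.3, 55.1 and 41.8 cpm and had 1 read, for a ratio of 1296 (233 to 51211). Rsad2, the antiviral enzyme viperin, was at 10.9 to 13.4 cpm against 0.279 cpm. The intervals cover counting error only. Bst2, the virion-tethering protein tetherin, was at 98.2, 107 and 81.9 cpm against 46.9 cpm. Of the sensors and regulators, Irf7, which amplifies the response, was at 20.3, 21.9 and 17.7 cpm against 0.837 cpm, and the RNA sensor Ifih1 at 11.5, 12.1 and 8.90 cpm against 0.0797 cpm. Oasl2 was at 9.83, 11.7 and 8.75 cpm against 0.638 cpm. Stat2, a subunit of ISGF3, was at 32.2, 35.9 and 32.2 cpm against 25.8 cpm and did not pass 2-fold. Irf1 and Trim25 rose, from 22.4, 22.6 and 21.6 cpm to 57.5 cpm and from 176, 173 and 174 cpm to 360 cpm. Psmb9, a subunit of the immunoproteasome, was the remaining member called higher (difference 1.25), and Psmb8 lay at 1.00.

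Y-linked genes differed by library rather than by table. All 4 listed genes were lower in the single WT library, beside 30.0% of all genes. Their median was −4.13 (−2.68 after centring by GC content), whereas the Dnmt1-/- pair had a median of 1.25. They summed to 217.4, 188.7 and 206.4 cpm in the WT replicates and to 7.411 cpm in the single WT library. The dCas9-OGA library was low as well (3.246 cpm), and the dCas9-OGA-D242A and single Dnmt1-/- libraries were not (127.6 and 143.1 cpm), while the Dnmt1-/- replicates held 65.04 to 73.39 cpm. Ddx3y, an RNA helicase, was at 118, 106 and 110 cpm against 2.19 cpm, 50.7-fold lower. The translation initiation factor Eif2s3y was at 55.3, 45.7 and 50.8 cpm against 4.38 cpm. The demethylase genes Uty and Kdm5d were at 39.9, 32.6 and 41.5 cpm against 0.797 cpm, and at 4.75, 4.20 and 4.13 cpm against 0.0398 cpm, which is 1 read. None of the 4 genes was at 0 in the single WT library.

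Genes of the trophoblast list were mostly higher in the single WT library than in the WT replicates, with keratins making up much of the sum. Of 12 measured members of the trophoblast list, 10 were higher and 0 lower, beside 14.2% of all genes higher. The median was 1.61 in WT, −0.95 in the Dnmt1-/- pair, 1.62 against the other 3 single libraries and 1.35 after centring by GC content. The 14 listed genes summed to 166.5, 167.3 and 161.7 cpm in the WT replicates and to 671.8 cpm in the single library, with 166.8 to 344.5 cpm in the other single libraries and 333.2 to 345.1 cpm in the Dnmt1-/- replicates. Without the keratins Krt7, Krt8 and Krt19, a split chosen after seeing the data, the sum of the other 11 genes was 101.4, 104.6 and 109.1 cpm in the WT replicates, 252.7 cpm in the single WT library and 249.9 cpm in the dCas9-OGA library, so that the last pair were near level. Of the 9 measured genes among these, 7 were higher and 0 lower, with a median of 1.61. Krt8, a keratin of simple epithelia, was at 38.4, 37.0 and 34.0 cpm against 269 cpm, 7.38-fold higher. In Dnmt1-/- cells it was at 108, 112 and 107 cpm in the replicates and at 20.3 cpm in the single library, so that the pair went the other way. Krt19 was at 13.8, 13.1 and 9.54 cpm against 120 cpm. Hand1, a transcription factor of trophoblast giant cells and mesoderm, was at 0.717, 0.647 and 0.819 cpm against 23.5 cpm, 32.2-fold higher, and Cdx2, a regulator of trophectoderm, at 0.751, 0.296 and 0.447 cpm against 6.34 cpm. The other early regulator Tfap2c was within 2-fold (difference 0.26, with 42.6, 43.7 and 46.1 cpm in the replicates), and Elf5 was measured below 1 cpm in every WT library. Peg10, an imprinted retrotransposon-derived gene that the placenta needs, was at 115, 120 and 131 cpm against 1422 cpm, 11.6-fold higher, and its difference in the Dnmt1-/- pair was −0.67.

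**Figure D4:**
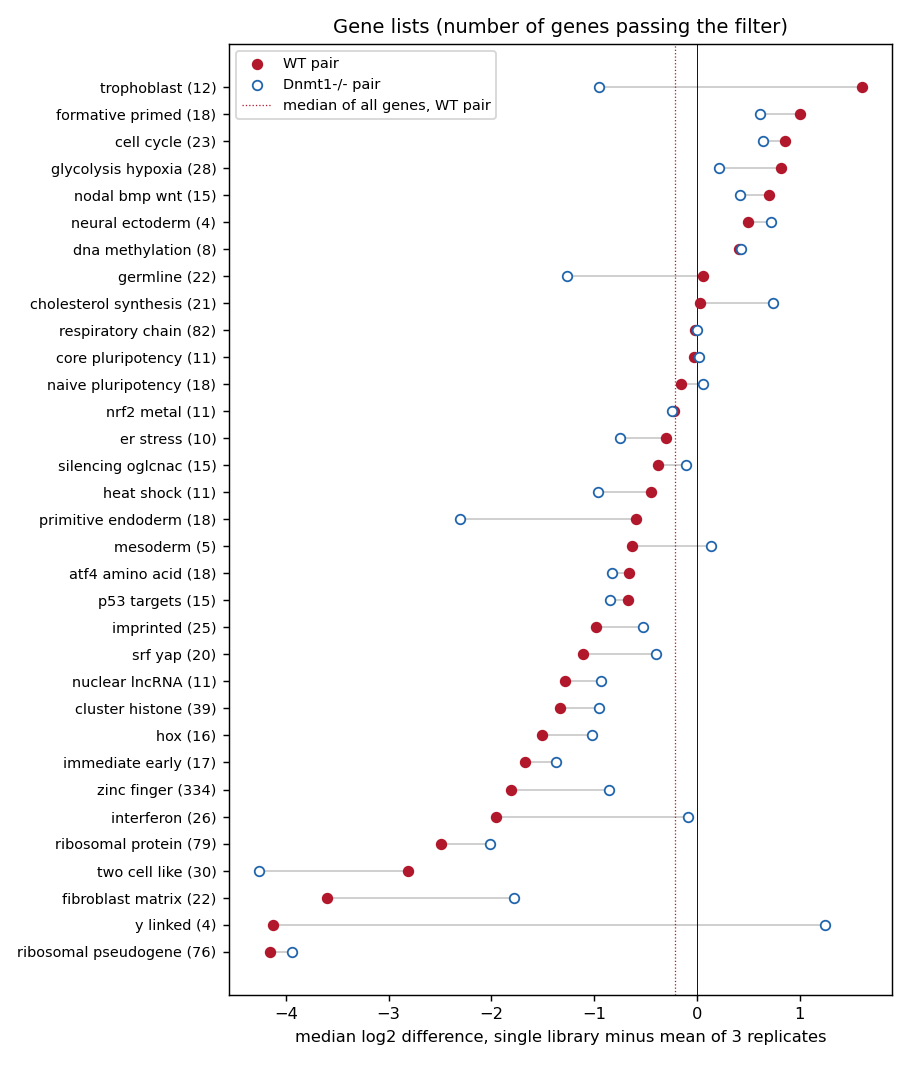
Median log2 difference (x axis, single library minus replicates) of 33 gene lists in the WT and the Dnmt1-/- pairs. Both medians use the members that passed the level filter in WT, and a dotted line marks the WT median of all genes (−0.21). Trophoblast genes lie to the right in WT (1.61) and to the left in Dnmt1-/- cells (−0.95), while interferon and Y-linked genes lie far to the left in WT alone (−1.96 and −4.13 against −0.09 and 1.25).

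Both sets expressed the core factors of pluripotency, in different proportions. Core genes had a median of −0.03 (0.88 after centring by GC content), with 4 of 11 higher and 4 lower, beside 14.2% and 30.0% of all genes. They summed to 3542, 3513 and 3657 cpm against 4194 cpm. Pou5f1, which encodes OCT4, was at 315, 330 and 309 cpm in the WT replicates and at 1303 cpm in the single library, while the homeodomain factor Nanog was at 747, 706 and 750 cpm against 317 cpm. Naive genes summed to 7142, 7139 and 7169 cpm against 4500 cpm. Of these 18 genes, 3 were higher, near the 14.2% of all genes, and 4 were lower, below the 30.0% of all genes. Esrrb was close in both sets (802, 830 and 859 against 767 cpm), as was Klf4 (443, 455 and 457 against 399 cpm). Zfp42, the ES cell marker REX1, was at 832, 816 and 847 cpm against 274 cpm. Sox2 was not analysed here.

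Formative and primed genes were higher in 9 of 18 cases and lower in 1, beside 14.2% and 30.0% of all genes, with a median of 1.00 in WT and 0.61 in Dnmt1-/- cells. Relative to the Dnmt1-/- pair the median was −0.09, with 5 genes higher and 5 lower. Utf1, a chromatin factor of pluripotent cells, was at 205, 223 and 213 cpm against 771 cpm, and the early epiblast regulator Otx2 at 27.2, 27.0 and 31.1 cpm against 78.6 cpm. Dnmt3b and Dnmt3l, the de novo methyltransferase and its cofactor, were at 129, 129 and 138 cpm against 452 cpm and at 246, 262 and 262 cpm against 1226 cpm. Cdh2, N-cadherin, fell from 51.8, 55.3 and 45.5 cpm to 9.32 cpm. Genes of Nodal, BMP and Wnt signaling were higher in 5 of 15 cases and lower in 2, beside the same shares of all genes (median 0.70 in WT and 0.42 in Dnmt1-/- cells). The 2 that fell were the Nodal inhibitors Lefty1 (170, 173 and 173 against 47.3 cpm) and Lefty2 (107, 104 and 108 against 44.9 cpm), which rose in the Dnmt1-/- pair, Lefty1 from 24.2, 21.5 and 18.9 cpm to 233 cpm. Id1, a BMP target, was at 82.1, 84.5 and 74.2 cpm against 254 cpm.

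Primitive endoderm genes were lower in 6 of 18 cases, near the 30.0% of all genes, and higher in 0 (median −0.59), while the median in the Dnmt1-/- pair was −2.31. Gata6, which starts this fate, was at 44.6, 44.9 and 40.6 cpm against 8.85 cpm, and Pdgfra, its receptor marker, at 23.9, 25.7 and 24.9 cpm against 4.42 cpm, while Sox17 was level at 5.33, 5.31 and 4.73 cpm against 5.54 cpm. Mesoderm genes were split with 2 of 5 higher and 2 lower, beside 14.2% and 30.0% of all genes. No gene of neural ectoderm passed 2-fold among 4 measured. Germline genes were higher in 7 of 22 cases and lower in 8 (median 0.06), beside 14.2% and 30.0% of all genes. Imprinted genes were lower in 12 of 25 cases and higher in 5, beside 30.0% and 14.2% of all genes, with a median of −0.98 in WT and −0.52 in Dnmt1-/- cells. That WT median was −0.46 after centring by GC content and −0.41 with a pseudocount of 5. Among these, Snrpn, a spliceosomal protein gene, was at 1.37, 1.40 and 1.56 cpm in the WT replicates against 91.1 cpm, and at 0.403, 0.517 and 0.251 cpm against 185 cpm in the Dnmt1-/- pair. Impact, a regulator of translation, was at 245, 225 and 226 cpm against 42.0 cpm, and the noncoding RNA Rian at 155, 141 and 136 cpm against 18.4 cpm.

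Several glycolysis and hypoxia genes were higher in the single WT library. Of 28 measured members, 13 were higher, 4 lower and the rest within 2-fold, beside 14.2% higher and 30.0% lower of all genes, with a median of 0.82 in WT, 0.22 in the Dnmt1-/- pair and 1.17 after centring by GC content, and their sum was 8715, 9051 and 8711 cpm against 19705 cpm. Slc16a3, a lactate exporter, was at 20.8, 20.3 and 21.5 cpm against 673 cpm, 32.2-fold higher. Slc2a1, the glucose transporter GLUT1, was at 174, 195 and 187 cpm against 1776 cpm, and the lactate dehydrogenase gene Ldha at 490, 480 and 456 cpm against 2557 cpm. Pgk1 and Gapdh, both enzymes of glycolysis, went the other way. Pgk1, of which 68.0% of 50-mers are shared, was at 473, 446 and 429 cpm against 60.4 cpm, and Gapdh at 133, 133 and 142 cpm against 22.5 cpm. Cholesterol synthesis genes were split with 5 of 21 higher and 4 lower, beside 14.2% and 30.0% of all genes (median 0.03). The metallothionein genes Mt1 and Mt2, which buffer metals, rose from 135, 140 and 114 cpm to 821 cpm and from 19.7, 17.9 and 18.8 cpm to 214 cpm, and they rose in the Dnmt1-/- pair by 2.65 and 2.95 on the log2 scale.

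Cell cycle genes were higher in 8 of 23 cases and lower in 6, the last near the 30.0% of all genes where 14.2% were higher (median 0.86 in WT and 0.64 in Dnmt1-/- cells), and their differences had a correlation of 0.42 with GC content. Ccne1, cyclin E1, was at 83.4, 85.2 and 84.7 cpm against 417 cpm, and the mitotic kinase Plk1 at 81.6, 88.5 and 86.9 cpm against 284 cpm. Ccnd2, cyclin D2, was at 335, 356 and 278 cpm against 11.9 cpm, and in Dnmt1-/- cells at 44.6, 45.2 and 41.3 cpm against 37.2 cpm. The proliferation marker Mki67 was at 192, 190 and 224 cpm against 14.8 cpm, below the other single libraries. Genes of DNA methylation were higher in 2 of 8 cases and lower in 2, beside 14.2% and 30.0% of all genes (median 0.41). Dnmt1 was at 321, 365 and 360 cpm in the WT replicates against 455 cpm. In Dnmt1-/- cells Dnmt1 was at 71.0, 74.1 and 75.4 cpm in the replicates and at 62.9 cpm in the single library, below both WT sets. Silencing factors were higher in 3 of 15 cases and lower in 6, beside 14.2% and 30.0% of all genes. Trim28, the corepressor recruited by zinc-finger proteins, was at 2283, 2422 and 2452 cpm against 5073 cpm.

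Stress genes were read beside the 30.0% of all genes lower and 14.2% higher. Targets of p53 were lower in 6 of 15 cases, targets of ATF4 in 7 of 18 and genes of endoplasmic reticulum stress in 2 of 10, with 0 higher in each list and medians of −0.67, −0.66 and −0.30. After centring by GC content, 2 of the p53 targets were lower and 2 higher, and 9 of the ATF4 targets were lower and 1 higher. Nupr1, a stress regulator induced by ATF4, was at 55.1, 54.7 and 45.8 cpm against 1.91 cpm. Heat shock genes were lower in 4 of 11 cases and higher in 1 (median −0.45), and the list of NRF2 targets and metal-response genes was lower in 2 of 11 and higher in 3 (median −0.22), the 3 being Mt1, Mt2 and Gclm, a subunit of the enzyme that starts glutathione synthesis. The medians of these lists in the Dnmt1-/- pair were −0.85, −0.83, −0.75, −0.96 and −0.24. None of the 5 lists reached a median beyond 1 in either pair. The heat shock list still summed to 7896, 7338 and 7653 cpm in the WT replicates against 2024 cpm in the single WT library. In the Dnmt1-/- pair its sum was 12114 to 12577 cpm against 2676 cpm.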

How the data were processed

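RNA sequencing of mouse ES cells was analysed from the deposited tables. For the joint table the authors deposited raw counts of reads per gene in 4 libraries, whose WT column is not tied by name to any WT replicate. For the 6 replicate samples the authors deposited a signal per gene, which is a read count divided by a scaled library size. All these values were whole multiples of the value of 1 read (tolerance 0.01), so reads were recovered and scaled to 1000000 per library. The submitters' processing notes list bcl2fastq 2.17, Bowtie2 2.2.2, TopHat2 2.0.11, HISAT2 2.1.0 and featureCounts 1.5.0. TopHat2 is listed for the single libraries that have labels and HISAT2 for the replicates, and for the WT column the mapper is not given in the sources used here. The labels and the methods name different TruSeq kits, so it is uncertain whether strand was kept, and genes that overlap or share sequence may have been counted differently.

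Genes with a mean of the single library and the replicate mean of at least 1 cpm were kept, and differences were taken on log2(cpm + 0.5). A 2-fold threshold replaced a test, since 1 library stands against 3 and the tables were normalized separately. Gene classes, transcript GC content and 50-mers shared with other genes came from GENCODE annotation of GRCm38, and 26679 genes (99.56%) matched. Promoters were from RefSeq. Tables were joined with pandas 2.3.3 in Python 3.11.15, intervals came from SciPy 1.17.1, TMM factors from edgeR 4.0.16 in R 4.3.3, and figures from matplotlib 3.10.9 with NumPy 2.4.6, and the comparison was tested on simulated data. The alternatives were other scalings, pseudocounts and level filters, leaving out a replicate, centring by GC content and keeping genes with little shared sequence.

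The libraries compared and the 34 gene lists were chosen with earlier results of these data known. Named genes were members of these lists, the 10 largest rises and falls over all and over protein-coding genes, with or without subtraction of the Dnmt1-/- difference, and the 5 most abundant genes of either set. Depth limits single genes to a floor of 3 reads, which is 0.120 cpm in the single WT library, and intervals on read counts cover counting error only. The 22874 genes in the joint table alone held 4.71% of the reads of the single WT library and were not compared. ChIP sequencing files were not used here.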

Additional observations from a re-analysis of the deposited data

Results flagged for a closer look

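Of 1011 genes of the lists that were checked, 13 lay at least 2-fold apart from all replicates in the WT pair and at least 2-fold apart in the opposite direction in the Dnmt1-/- pair. Over all 13836 genes that passed in both pairs, 21 were higher in WT and lower in Dnmt1-/- cells and 65 the reverse. Those 2 counts use the mean of the replicates, a looser rule. The difference between the pairs was not tested, since each pair has 1 single library. In 6 of the 13 genes the single library was higher in WT and lower in Dnmt1-/- cells. Of the epithelial and trophoblast genes, Krt8 differed by 2.87 in WT and −2.39 in Dnmt1-/- cells on the log2 scale, Hand1 by 4.29 and −1.13 and the TEAD factor Tead4 by 1.40 and −1.17. The homeobox gene Rhox6 differed by 1.87 and −1.27, and the germline genes Tex19.1 and Slc25a31 by 1.05 and −1.04 and by 1.34 and −1.25. In the other 7 genes the single library was lower in WT and higher in Dnmt1-/- cells. The Nodal inhibitors Lefty1 and Lefty2 differed by −1.85 and 3.41 and by −1.23 and 1.51. The Y-linked genes Uty, Eif2s3y and Kdm5d differed by −4.88 and 1.37, by −3.38 and 1.15 and by −3.17 and 1.35. The interferon-stimulated gene Oasl2 differed by −3.21 and 1.49, and the myosin light chain Myl9 by −2.42 and 1.31.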

How the results depend on the processing

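No paired analysis was possible because the comparison sets 1 library against 3 and gives no test, and the WT column carries no replicate number. Of the 16 alternatives, 4 (centring by GC content among them) were chosen after seeing the data. Another, a total without genes of the mitochondrial genome, could not move any value, since these genes held 0 reads in the joint table. Of 39 medians, 16 lay beyond 1 on the log2 scale, and 13 of these kept their sign, 12 under all 16 and 1, the ribosomal protein pseudogenes, under all but the restriction to little-shared sequence, which gave no value for it. Relative to the Dnmt1-/- pair the counts of genes higher and lower were 1000 and 2118, and the medians of the 2-cell-like and Hox lists turned to 1.53 over 27 genes and 0.01 over 7 genes that passed in both pairs, beside 1.29 and −0.30 over all members measured in WT. With genes of little-shared sequence alone (under 10% of 50-mers and no exon overlap on the same strand) the counts were 1363 and 2872 in WT and 883 and 1576 in the Dnmt1-/- pair, and the median of the clustered histones was 0.28. A pseudocount of 5 gave 1332 and 2764 in WT, 967 and 1476 in the Dnmt1-/- pair and 266 and 801 within the joint table. Genes past 2-fold among the WT replicates, 4 in all, were 64 with a pseudocount of 0.1 and 1 with a pseudocount of 5. A filter at 5 cpm left 1613 genes lower in the Dnmt1-/- pair. The cause of these changes was not tested, apart from the smaller number of genes under the last filter and in the restricted set. Leaving out a replicate gave 2070 to 2115 higher and 4423 to 4468 lower in WT, 1556 to 1600 and 2725 to 2767 in the Dnmt1-/- pair and 4 to 6 among the replicates. Scaling by TMM gave 2564 and 4033. Depth limits genes under a few cpm, where few reads separate the sets.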
